A study of Mus musculus with 2 samples.

Results

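The genes described here are the parts of Wnt signalling: the ligands, their secretion factors, the receptors and co-receptors, the antagonists, the intracellular transducers, the Tcf/Lef transcription factors and the feedback inhibitors. They were chosen by symbol alone, as protein-coding rows of the deposited count table that carry a Wnt, Fzd, Sfrp, Dkk, Nkd or Rspo family name or the name of 1 of a fixed set of further pathway genes. The rule found 58 of the 19595 genes of the table. Total RNA of neural stem cells was sequenced, taken from the brain of ICR mice (embryonic day 13). The control library is labelled psicor with the genotype WT, and the other library is labelled sh1 with the genotype KO, while the design text speaks of a knockdown and the series title names Ccdc25 as the gene under study. The labels do not give a hairpin sequence, dose or culture time and say neither whether animals were pooled nor how many cultures a column holds. The design text mentions triplicates, but the table holds 1 column of counts per group, so every comparison below is between 2 libraries, has no replicate check and carries no p-value.

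Wnt proteins are lipid-modified signals that are acylated by Porcn and carried to the cell surface by Wls. On the receiving cell they bind a Frizzled receptor together with Lrp5 or Lrp6, which recruits Dishevelled, inhibits the complex of Axin and Apc that marks beta-catenin for destruction, and lets beta-catenin act with Tcf/Lef factors on target genes. In the embryonic forebrain the pathway is known for patterning the dorsal midline, for maintaining and then differentiating cortical progenitors, and for timing oligodendrocyte maturation.

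The control library held 16549682 counts over all genes of the table and the knockdown library 16058407. Levels are CPM, a gene's counts relative to the size of its library, which edgeR's TMM scaling adjusts, ratios are knockdown over control, and each range in brackets is an exact conditional binomial 95% interval that covers counting error only. Gene positions are those of the build GRCm38. Ccdc25, the targeted gene, had 553 control and 411 knockdown counts, a ratio of 0.794 (0.697 to 0.904), or 20.6% lower, which is the direction of the labels. Its log2 fold of -0.33 is smaller in size than the median absolute log2 fold of 0.36 over all genes past the minimum, and 33.6% of those genes had an interval below 1. Markers of cell types also differed between the libraries, and their part in the results below was not tested. In bulk RNA, fewer cells of a type and less RNA per cell cannot be told apart. Of 10 markers of neural stem cells and radial glia 9 were above their control level (summing to 6599 and 8446 CPM, control first), as were 8 of 8 astrocyte markers (568 and 1905 CPM) and 10 of 10 markers of the oligodendrocyte lineage (2927 and 4770 CPM). Neuronal markers were below it in 9 of 10 cases (3447 and 1411 CPM), and of the 8 mesenchymal markers averaging 1 CPM or more 7 were (351 and 164 CPM over all 10), with Lum at 27 and 0 counts. Pdgfra, listed with the oligodendrocyte lineage as well, held 15.8 and 122 CPM of the mesenchymal sums. It was the only mesenchymal marker above its control level. Sox9 was listed both with neural stem cells and with astrocytes. Of all genes past the minimum, 49.7% had a log2 fold above 0. S100b (0.475 and 9.26 CPM) and Enpp6 (0.0593 and 10.65 CPM) averaged 1 CPM or more only through the knockdown library. Dcn (5.34 and 0.761 CPM) and Postn (4.985 and 0.381 CPM) did so only through the control library. The 9 microglial markers with a row summed to 37.5 and 12.3 CPM, with Csf1r, Cx3cr1 and Ptprc at 0 in the knockdown library. The 7 endothelial and pericyte markers with a row summed to 6.53 and 8.12 CPM, of which Pdgfrb held 1.13 and 5.14 CPM, while Kdr (1.48 and 0.571 CPM) and Flt1 (1.01 and 0.127 CPM) were lower and Cdh5 was at 0 in the knockdown library. The 5 choroid plexus and ependymal markers with a row summed to 91.8 and 154 CPM, most of it Foxj1 (79.8 and 145 CPM).

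Most Wnt pathway genes that were measurable lay within 2-fold between the libraries, with more of them above than below the control level. Of the 58 genes, 42 averaged 1 CPM or more over both libraries, the minimum used for calling a 2-fold difference. The log2 fold adds 0.5 to each count, and 2-fold stands for a log2 fold of at least 1 or at most -1. At least 2-fold above the control were 7 of the 42 (16.7%), namely Wnt5b, Wnt3, Fzd9, Rnf43, Dkk3, Sfrp5 and Tcf7l1, beside 7.64% of all 14158 genes past the same minimum and 6.97% of the protein-coding ones. At least 2-fold below it were 2 of the 42 (4.76%), Wnt4 and Rspo2, beside 7.76% of all and 7.77% of protein-coding genes. Both directions together made 21.4% of the 42, beside 15.4% and 14.7%. The other 33 lay within 2-fold. Rnf43 and Rspo2 passed the minimum only through the library in which they were high, so the filter itself favoured a difference in them. The counting interval lay above a ratio of 1 for 24 of the 42 (57.1%), beside 33.2% of all and 33.7% of protein-coding genes, and below it for 7 (16.7%), beside 33.6% and 35.2%. The log2 fold was above 0 for 31 of the 42, beside 49.7% of all and 48.9% of protein-coding genes. The median log2 fold was 0.28 over the 42 genes and -0.0042 over all 14158, and these shares and medians are descriptions without a test.

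**Figure D1:**
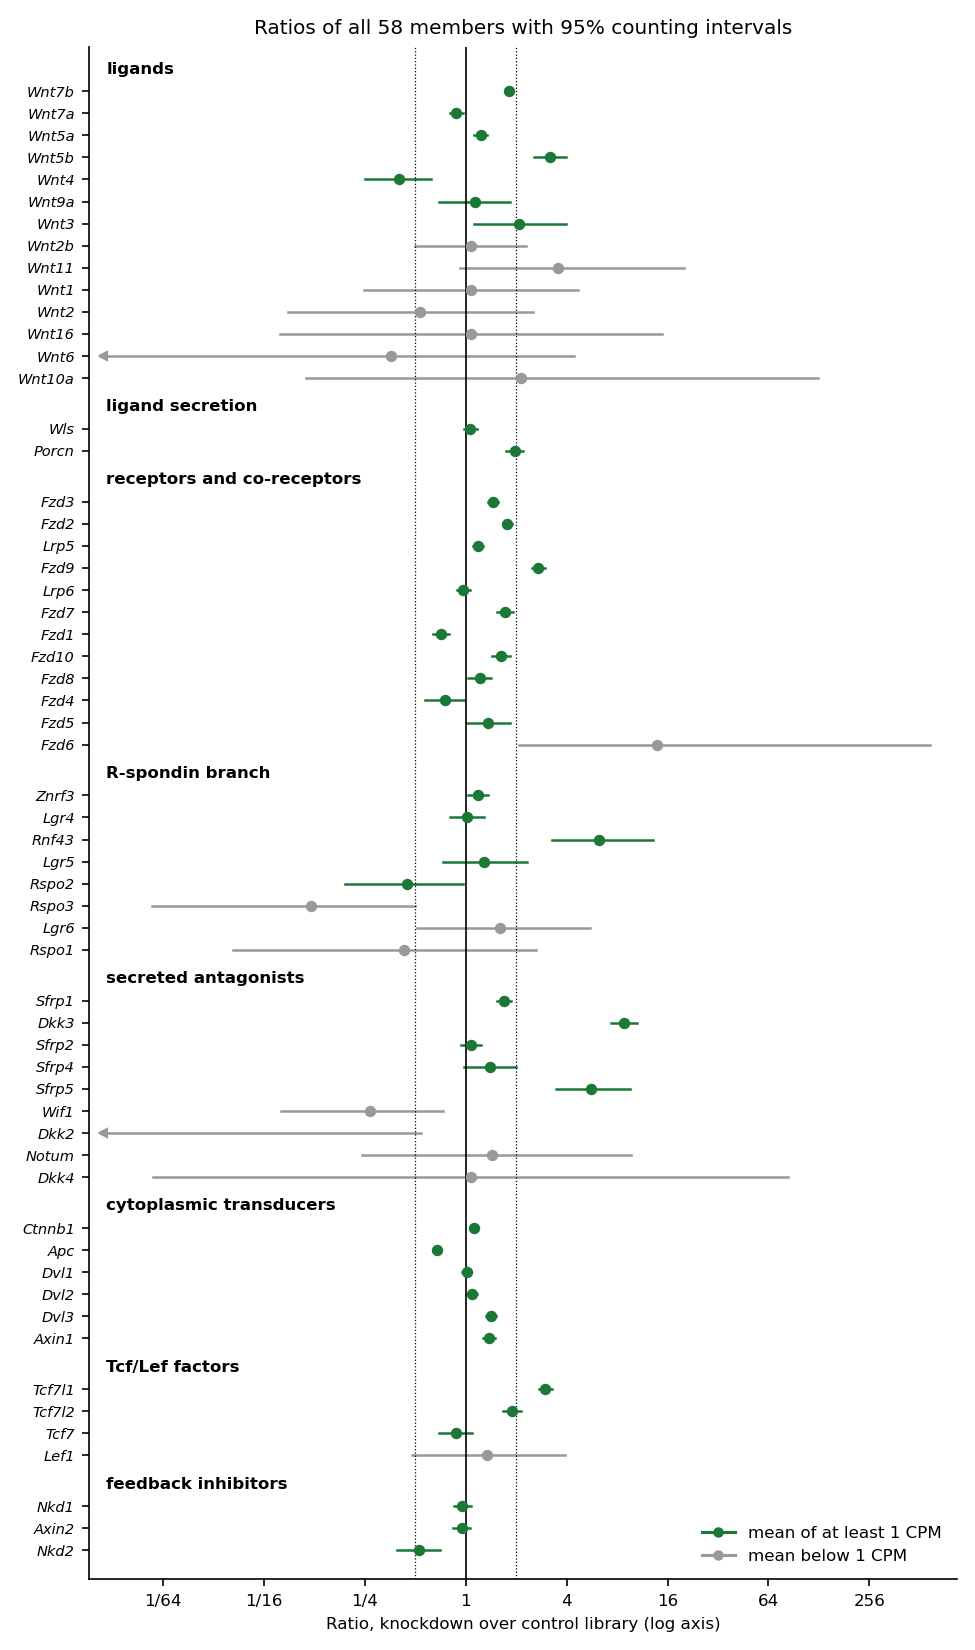
Ratio of the TMM-scaled level in the knockdown library to that in the control library for all 58 genes, by role, on a log2 axis; points are ratios, lines are 95% counting intervals, an arrow marks an interval that runs off the axis, and dotted lines mark 2-fold in either direction. Dkk3 at 8.79, Rnf43 at 6.22 and Sfrp5 at 5.61 stand furthest right among the genes past the minimum of 1 CPM (green). Rnf43 passed that minimum only through the knockdown library. Dkk2, with 0 counts in the knockdown library, has no point.

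Promoter sequences from RefSeq (build GRCm38.p6) were found for 37 of the 58 genes, in 47 windows, since some genes have several starts. A window here is the 250 bases before an annotated start. The 3 motifs searched on both strands were CTTTGA, the core recognised by Tcf/Lef factors, ATTGT, a core recognised by Sox factors, and GGGCGG, the GC box, whose matches can overlap each other. The Tcf/Lef core was found in 4 member windows (8.51%), beside 13.8% of all 32851 windows, and the Sox core in 6 (12.8%), beside 27.7% of all windows. The GC box was found in 34 member windows (72.3%), beside 32.7% of all, and the median GC content was 66.4% in member windows and 52.4% in all windows. The 150 bases before the start are shown for a ligand and an antagonist that were at least 2-fold higher, for Axin2, the customary readout of the pathway, and for Tcf7l2, a mediator of it. Wnt5b is shown at the first and the last of its 3 starts because, within these 150 bases, the last alone holds a Tcf/Lef core (CTTTGA, first base 71 bases before the start). Capitals mark matches to any of the 3 motifs, and each sequence reads 5′ to 3′ on the strand of its gene.
Wnt5b, first start, chr6:119544348-119544497, minus strand: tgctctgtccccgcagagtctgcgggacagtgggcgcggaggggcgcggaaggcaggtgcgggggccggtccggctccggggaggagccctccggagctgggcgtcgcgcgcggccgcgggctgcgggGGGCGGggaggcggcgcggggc
Wnt5b, last start, chr6:119449387-119449536, minus strand: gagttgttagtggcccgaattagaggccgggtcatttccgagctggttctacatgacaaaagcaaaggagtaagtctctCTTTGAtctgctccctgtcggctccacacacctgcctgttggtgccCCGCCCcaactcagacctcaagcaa
Sfrp5, chr19:42202253-42202402, minus strand: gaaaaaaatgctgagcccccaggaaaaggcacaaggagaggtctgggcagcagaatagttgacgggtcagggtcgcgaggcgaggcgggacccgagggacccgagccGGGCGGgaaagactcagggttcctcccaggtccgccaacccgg
Axin2, chr11:108920199-108920348, plus strand: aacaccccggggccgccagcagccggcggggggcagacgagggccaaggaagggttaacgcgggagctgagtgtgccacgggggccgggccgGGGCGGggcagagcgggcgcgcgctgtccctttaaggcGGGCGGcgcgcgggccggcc
Tcf7l2, chr19:55741660-55741809, plus strand: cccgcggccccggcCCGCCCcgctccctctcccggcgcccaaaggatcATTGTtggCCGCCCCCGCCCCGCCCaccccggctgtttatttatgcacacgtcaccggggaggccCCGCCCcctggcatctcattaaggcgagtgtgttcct
None of the 150 bases shown lies in an annotated exon. The Sfrp5 window holds 1 GC box, 43 bases before the start, and the Axin2 window holds 2, at 58 and 20 bases before it, with no Tcf/Lef or Sox core in these 150 bases of either gene. The Tcf7l2 window shown, that of its first start, holds a Sox core 102 bases before the start besides its GC boxes. A later Tcf7l2 start (chr19:55895171-55895320, 37.3% GC) has no match to any of the 3 motifs in its 150 bases. A match is a string of letters and says nothing of binding in these cells.

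Wnt7b, Wnt7a and Wnt5a held most of the ligand counts in both libraries, and the share of Wnt7b was larger in the knockdown library. All 14 ligands together had 5035 control and 7071 knockdown counts, or 299 and 448 CPM. Wnt7b (ENSMUSG00000022382, chromosome 15, 85535439 to 85581821, minus strand), a ligand of cortical progenitors and neurons that also guides brain vessels, had 2781 and 4701 counts, or 165 and 298 CPM, a ratio of 1.81 (1.72 to 1.89). Its share of all ligand counts was 55.2% (53.9% to 56.6%) in the control library and 66.5% (65.4% to 67.6%) in the knockdown, a value that does not depend on how the libraries were scaled. Wnt7a, its closest relative, went the other way, with 1093 and 894 counts, or 64.9 and 56.7 CPM, a ratio of 0.874 (0.799 to 0.956). The share of Wnt7a in the ligand counts was 21.7% (20.6% to 22.9%) in the control library and 12.6% (11.9% to 13.4%) in the knockdown. Wnt7b shares 324 exonic bases with the antisense gene AU022754, which had 11 and 39 counts, and reads in the shared bases cannot be told apart unless counting used strand.

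The ligands best known for beta-catenin-independent signalling, Wnt5a and Wnt5b, were both above their control level. Wnt5b (ENSMUSG00000030170, chromosome 6, 119432531 to 119544347, minus strand) had 108 control and 321 knockdown counts, or 6.41 and 20.4 CPM, a ratio of 3.18 (2.55 to 3.99). Wnt5a had 886 and 1016 counts, or 52.6 and 64.4 CPM, a ratio of 1.23 (1.12 to 1.34). Per kilobase of exonic length Wnt5a stood at 6.72 CPM and Wnt5b at 2.42 CPM in the control, while in the knockdown library the values were close, at 8.24 and 7.67 CPM.

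Besides Wnt5b, the ligands past 2-fold were Wnt4, which was lower in the knockdown library, and Wnt3, which was higher. Wnt4 (chromosome 4, 137277489 to 137299726, plus strand), which is active in kidney, gonad and spinal floor plate development, had 78 and 29 counts, or 4.63 and 1.84 CPM, a ratio of 0.397 (0.250 to 0.616). Wnt3 (chromosome 11, 103774150 to 103817957, plus strand), a beta-catenin-activating ligand, had 17 and 33 counts, or 1.01 and 2.09 CPM, a ratio of 2.07 (1.12 to 3.97), and its log2 fold of 1.03 came inside 2-fold with total-count scaling (0.98), a prior count of 5 (0.88) and the trend with gene length and GC content removed (0.96). Wnt9a had 36 and 38 counts, and its interval (0.696 to 1.83) included 1. The remaining ligands, Wnt2b, Wnt11, Wnt1, Wnt2, Wnt16, Wnt6 and Wnt10a, lay below the minimum with 1 to 16 counts in either library, and a difference was not detectable for any of them at this depth, since every interval included 1. Wnt2b, a ligand of the cortical hem at the dorsal midline, had 16 counts in each library.

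Of the 2 factors that ligands need for release, Porcn was higher in the knockdown library and the interval of Wls included 1. Porcn (chromosome X, 8193848 to 8206525, minus strand), the acyltransferase of the endoplasmic reticulum, had 429 control and 784 knockdown counts, or 25.5 and 49.7 CPM, a ratio of 1.95 (1.73 to 2.2). Wls, the carrier protein, had 990 and 982 counts, or 58.8 and 62.3 CPM, a ratio of 1.06 (0.969 to 1.16), and its log2 fold of 0.08 came to 0.28, above that interval, with the length and GC trend removed.

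**Figure D2:**
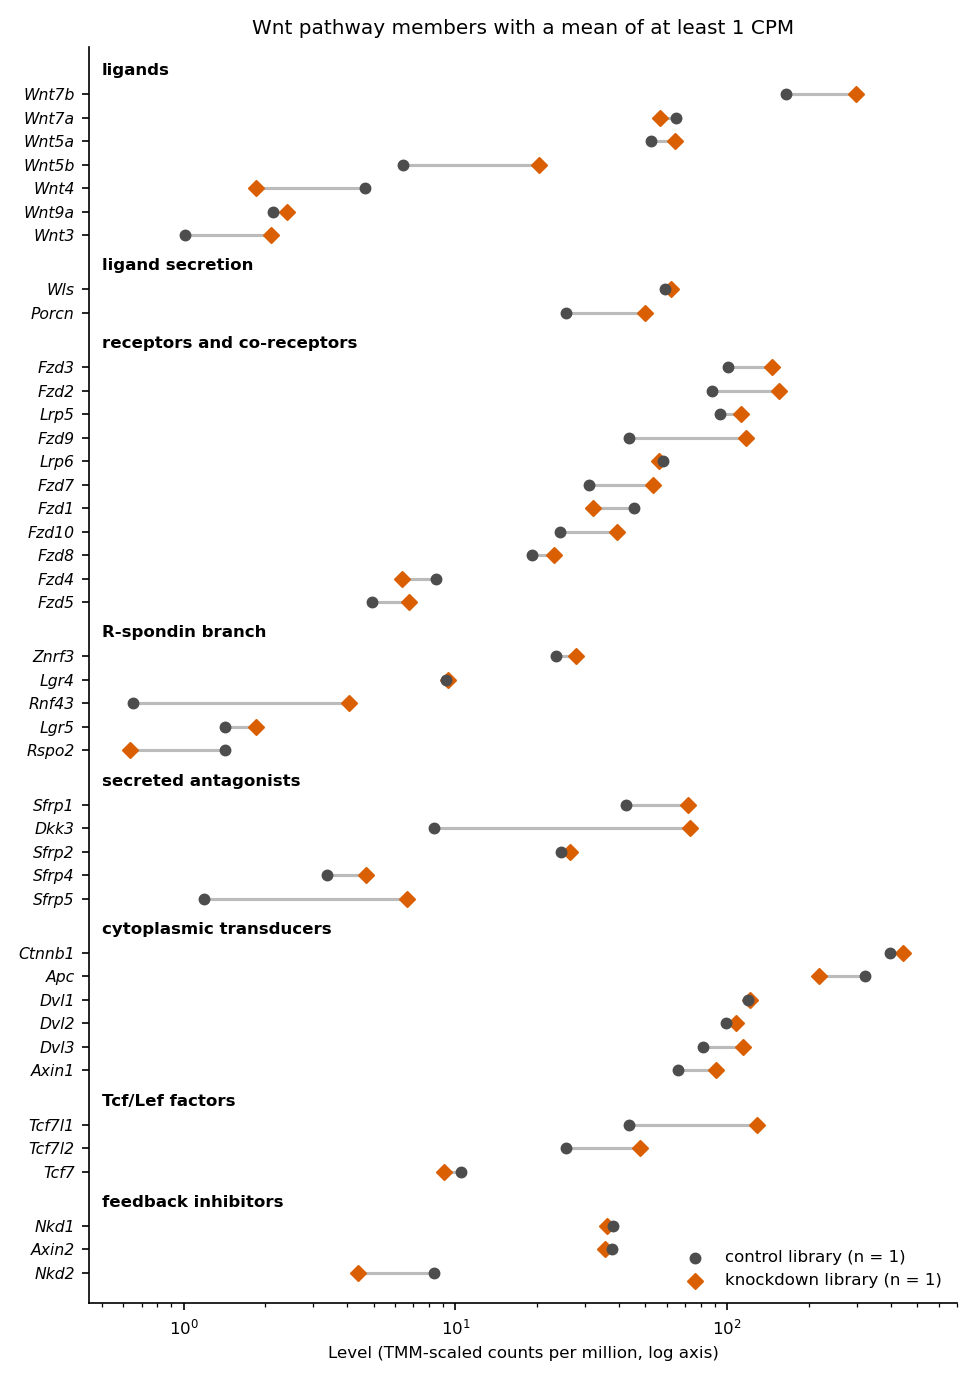
Level of each of the 42 genes past the minimum of 1 CPM in the control library (grey circles) and the knockdown library (orange diamonds), as TMM-scaled CPM on a log axis, grouped by role, with 1 library per group and no error bars. The longest lines belong to Dkk3 (8.31 and 73.0 CPM), Rnf43 (0.653 and 4.06 CPM) and Sfrp5 (1.19 and 6.66 CPM). Rnf43 passed the minimum only through the knockdown library. Ctnnb1, at 397 and 443 CPM, is the gene with the most counts in both libraries.

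Frizzled receptors, the seven-pass receptors of Wnt ligands, summed to 6146 control and 9153 knockdown counts, or 365 and 580 CPM. Of the 9 Frizzled genes past the minimum, 7 were above their control level and 2 below it, in each case with an interval that excluded 1. Over all genes past the minimum, the interval lay above 1 for 33.2% and below 1 for 33.6%. Fzd9 (ENSMUSG00000049551, chromosome 5, 135248938 to 135251230, minus strand) stood furthest, with 732 and 1852 counts, or 43.4 and 117 CPM, a ratio of 2.70 (2.48 to 2.95). Fzd2 had 1478 and 2449 counts, or 87.7 and 155 CPM, a ratio of 1.77 (1.66 to 1.89). Its log2 fold of 0.824 came to 0.729, just below that interval, with the length and GC trend removed. Fzd7, a receptor of stem and progenitor cells, had 524 and 839 counts, a ratio of 1.71 (1.53 to 1.91), and Fzd10 had 408 and 621, a ratio of 1.63 (1.43 to 1.85). Fzd3, which acts in axon guidance and planar cell polarity, had 1692 and 2303 counts, or 100.4 and 146 CPM, a ratio of 1.45 (1.37 to 1.55). Its log2 fold of 0.54 came to 0.80, above that interval, with the same trend removed. Fzd8 and Fzd5 were closer to 1. Fzd8 had 321 and 363 counts, a ratio of 1.21 (1.04 to 1.41). Fzd5 had 83 and 106 counts, a ratio of 1.37 (1.01 to 1.84), and it shares 1233 exonic bases with Gm38058 on the opposite strand.

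The receptors below their control level were Fzd1 and Fzd4. Fzd1 had 764 control and 507 knockdown counts, a ratio of 0.709 (0.633 to 0.794). Fzd4, the receptor of retinal and brain vessels, had 143 and 100 counts, a ratio of 0.747 (0.573 to 0.972). Fzd6 had 1 and 13 counts, a ratio of 13.9 with a counting interval of 2.09 to 590, and lay below the minimum.

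The order of Frizzled genes per kilobase differed between the libraries. In the control, Fzd2 stood highest at 23.9 CPM per kilobase, followed by Fzd9 at 18.9 and Fzd1 at 10.8. In the knockdown library Fzd9 led at 51.2 CPM per kilobase, followed by Fzd2 at 42.4, and Fzd1 was at 7.66, below Fzd10, Fzd7 and Fzd3. As a share of all Frizzled counts, Fzd9 made up 11.9% (11.1% to 12.8%) in the control library and 20.2% (19.4% to 21.1%) in the knockdown, and Fzd1 12.4% (11.6% to 13.3%) and 5.54% (5.08% to 6.03%).

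The co-receptors lay close to their control levels. Lrp5 had 1584 and 1764 counts, or 94.0 and 112 CPM, a ratio of 1.19 (1.11 to 1.27). Lrp6 had 978 and 884 counts, a ratio of 0.966 (0.881 to 1.06), and its log2 fold of -0.05 became 0.16 once the trend with gene length and GC content was removed.

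**Figure D3:**
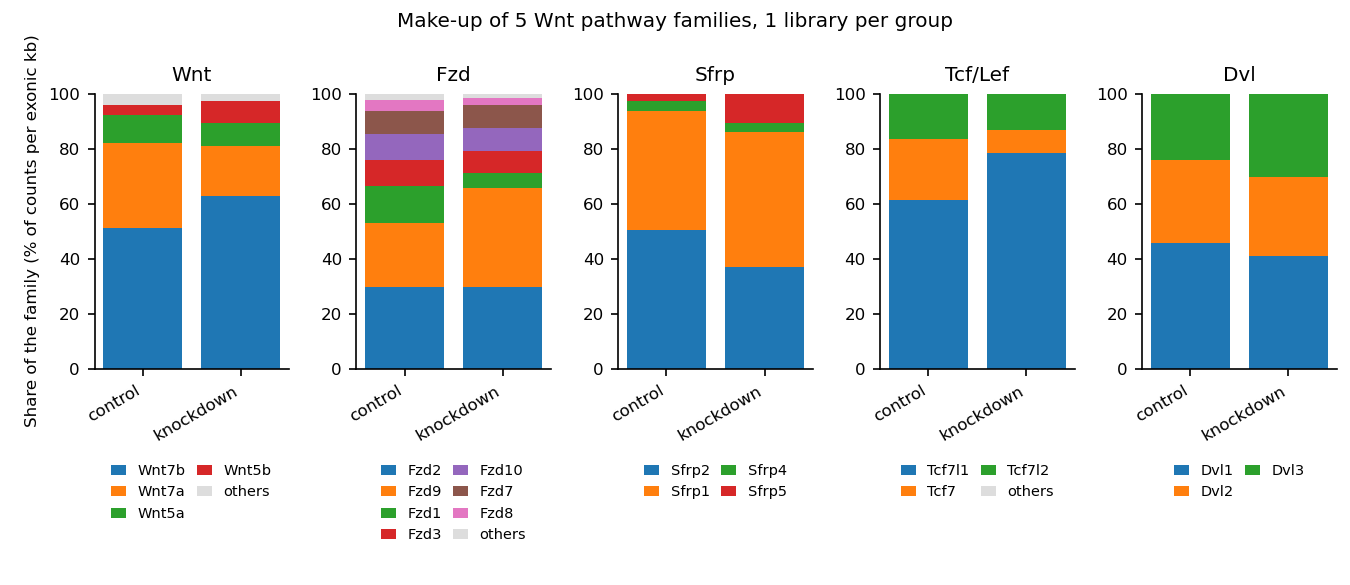
Make-up of the Wnt, Frizzled, Sfrp, Tcf/Lef and Dishevelled families in each library, as each gene's percentage of the family's counts per kilobase of exonic length; genes under 3% in both libraries are pooled as others. Wnt7b goes from 51.0% to 62.6% of the ligands, Fzd9 from 23.4% to 36.0% of the receptors and Tcf7l1 from 61.4% to 78.6% of the Tcf/Lef factors, control to knockdown.

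In the branch that sets how many receptors stay on the surface, the summed counts of the ligands were lower in the knockdown library and 1 of the receptor-removing enzymes was higher there by more than 2-fold. R-spondins bind Lgr receptors and block the ubiquitin ligases Rnf43 and Znrf3, which otherwise remove Frizzled from the membrane. The 3 R-spondins together had 47 control and 14 knockdown counts. Rspo2 (chromosome 15, 43020794 to 43170826, minus strand) had 24 and 10 counts, or 1.42 and 0.634 CPM, a ratio of 0.445 (0.190 to 0.966). Its log2 fold of -1.13 came inside 2-fold with a prior count of 5 (-0.86), and it passed the minimum only through the control library. Rspo3 had 18 and 2 counts, a ratio of 0.119 (0.0134 to 0.496). Rspo1, with 5 and 2 counts, had an interval (0.0407 to 2.61) that included 1. Rspo3 and Rspo1 lay below the minimum. R-spondins are also markers of the cortical hem, whose 5 markers with a row, 4 of them members, summed to 4.10 and 2.85 CPM. The R-spondins themselves made up 2.79 and 0.888 CPM of these sums, while the other hem markers were not lower, with Wnt2b at 16 counts in each library and Lmx1a, the only one that is no member, at 6 and 15 counts. The mesenchymal markers given above, apart from Pdgfra, were lower in the same library as well. The part of hem and of mesenchymal cells in these values was not tested.

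Rnf43 (ENSMUSG00000034177, chromosome 11, 87662722 to 87735539, plus strand) had 11 control and 64 knockdown counts, or 0.653 and 4.06 CPM, a ratio of 6.22 (3.25 to 13.1). It passed the minimum only through the knockdown library. Its paralogue Znrf3 stood higher per kilobase in both libraries (2.98 and 3.50 CPM, beside 0.0995 and 0.619 CPM for Rnf43) and close to its control level, with 396 and 436 counts, or 23.5 and 27.7 CPM, a ratio of 1.18 (1.02 to 1.35). Among the receptors, Lgr4 had 155 and 148 counts, or 9.2 and 9.39 CPM, a ratio of 1.02 (0.809 to 1.29), and made up 83.8% (77.7% to 88.8%) and 79.6% (73.1% to 85.1%) of all Lgr counts. Lgr5, the stem cell marker of the gut and a beta-catenin target, had 24 and 29 counts, a ratio of 1.29 (0.726 to 2.32), and Lgr6 had 6 and 9, and neither interval excluded 1.

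Among secreted antagonists past the minimum, the 2 largest differences were in Dkk3 and Sfrp5. The 9 genes of the group summed to 81.8 CPM (control) and 183 CPM (knockdown), of which Dkk3 held 8.31 and 73.0 CPM and Sfrp1 42.5 and 71.5 CPM. Dkk3 (ENSMUSG00000030772, chromosome 7, 112116017 to 112159057, minus strand), a secreted glycoprotein and the most divergent member of the Dickkopf family, had 140 and 1151 counts, or 8.31 and 73.0 CPM, a ratio of 8.79 (7.37 to 10.6). Sfrp5 (ENSMUSG00000018822, chromosome 19, 42197971 to 42202252, minus strand), a decoy that resembles the ligand-binding part of Frizzled, had 20 and 105 counts, or 1.19 and 6.66 CPM, a ratio of 5.61 (3.46 to 9.56). Sfrp1, the most counted decoy, had 716 and 1128 counts, or 42.5 and 71.5 CPM, a ratio of 1.68 (1.53 to 1.85). Sfrp2 had 413 and 416 counts, or 24.5 and 26.4 CPM, a ratio of 1.08 (0.937 to 1.24). Sfrp4 had 57 and 74 counts, or 3.38 and 4.69 CPM, a ratio of 1.39 (0.969 to 2.00), and both intervals included 1. Per kilobase, Sfrp2 stood above Sfrp1 among the decoys in the control library (11.4 and 9.72 CPM), and Sfrp1 above Sfrp2 in the knockdown (16.4 and 12.3 CPM). All 5 antagonists past the minimum had log2 folds above 0, beside 49.7% of all genes past it. Of these antagonists, Sfrp2 came to -0.006 once the trend with gene length and GC content was removed. Astrocyte markers were higher in the same library, and their part in the Dkk3 and Sfrp5 values was not tested.

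The antagonists below the minimum included 2 that were lower in the knockdown library beyond counting error. Wif1, which binds Wnt ligands directly, had 20 and 5 counts, a ratio of 0.267 (0.0784 to 0.734). Dkk2, a ligand of Lrp5 and Lrp6, had 9 control and 0 knockdown counts, a ratio of 0 (0 to 0.541). With the knockdown library set to its floor of 3 counts (0.19 CPM) it was 2.81-fold lower. That value leaves out the counting error of the 9 control counts. Notum, the enzyme that strips the lipid from Wnt proteins, had 3 and 4 counts, and Dkk4 had 1 in each library. Over all 16 genes of the pathway below the minimum, the interval lay below 1 for 3 (Rspo3, Wif1 and Dkk2) and above 1 for 1 (Fzd6), beside 9.97% and 8.48% of the 5437 genes of the table below 1 CPM. The log2 fold was below 0 for 6 of the 16, beside 46.6% of those genes.

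The transducers inside the cell held the most counts of all roles and had nearly the same sum in both libraries, with 1084 CPM (control) and 1094 CPM (knockdown). Ctnnb1 (ENSMUSG00000006932, chromosome 9, 120929216 to 120960507, plus strand), which encodes beta-catenin, had 6698 and 6990 counts, or 397 and 443 CPM, a ratio of 1.12 (1.08 to 1.15). Its log2 fold of 0.157 came to 0.105, just below that interval, with total-count scaling and with the authors' CPM. Ctnnb1 shares 759 exonic bases with Ulk4 on the opposite strand, which had 156 and 76 counts. Apc, the scaffold of the destruction complex, was lower in the knockdown library, with 5425 and 3421 counts, or 322 and 217 CPM, a ratio of 0.674 (0.645 to 0.703), and its log2 fold of -0.57 came to -0.33 once the trend with length and GC content was removed. Axin1, the limiting scaffold of the same complex, was higher, with 1114 and 1434 counts, a ratio of 1.38 (1.27 to 1.49). Of the Dishevelled genes, which relay the signal from Frizzled, Dvl3 had 1368 and 1804 counts, or 81.2 and 114 CPM, a ratio of 1.41 (1.31 to 1.51). Dvl2 had 1661 and 1697 counts, or 98.6 and 108 CPM, a ratio of 1.09 (1.02 to 1.17). Dvl1 had 2009 and 1907 counts, or 119 and 121 CPM, a ratio of 1.01 (0.952 to 1.08), and came out below 1 with total-count scaling. Dvl2 shares 1151 exonic bases with Acadvl on the opposite strand, which had 398 and 592 counts, so its small difference is uncertain unless counting used strand.

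The Tcf/Lef factors, through which beta-catenin reaches DNA, summed to 1343 control and 2943 knockdown counts, or 79.7 and 187 CPM. Tcf7l1 (ENSMUSG00000055799, chromosome 6, 72626378 to 72789254, minus strand), which acts mainly as a repressor until beta-catenin relieves it, had 730 and 2035 counts, or 43.3 and 129 CPM, a ratio of 2.98 (2.74 to 3.25). It shares 179 exonic bases with the antisense gene Gm15401, which had 0 and 7 counts. Tcf7l2 (chromosome 19, 55741810 to 55933654, plus strand), a factor of oligodendrocyte differentiation and thalamic neurons, had 429 and 755 counts, or 25.5 and 47.9 CPM, a ratio of 1.88 (1.67 to 2.12). Tcf7, a factor best known from T cells, had 176 and 143 counts, or 10.4 and 9.07 CPM, a ratio of 0.868 (0.691 to 1.09), and Lef1, a marker of active signalling in the hippocampal primordium, had 8 and 10 counts. Tcf7l1 made up 54.4% (51.7% to 57.1%) of the family's counts in the control library and 69.2% (67.4% to 70.8%) in the knockdown, while Tcf7 made up 13.1% (11.4% to 15.0%) and 4.86% (4.11% to 5.70%). Markers of the oligodendrocyte lineage were higher in the knockdown library as well, and their part in the Tcf7l2 value was not tested.

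The 3 genes grouped here as feedback inhibitors, which the pathway switches on to limit itself, were not above their control level. This holds for Axin2, Nkd1 and Nkd2 only. The receptor-removing enzymes Rnf43 and Znrf3, given with the R-spondin branch, were above it, at ratios of 6.22 and 1.18. Axin2 (chromosome 11, 108920349 to 108950783, plus strand) had 636 control and 561 knockdown counts, or 37.7 and 35.6 CPM, a ratio of 0.943 (0.840 to 1.06). Nkd1, which binds Dishevelled, had 638 and 568 counts, or 37.9 and 36.0 CPM, a ratio of 0.951 (0.848 to 1.07). Nkd2 (chromosome 13, 73818534 to 73847631, minus strand) was lower, with 141 and 69 counts, or 8.37 and 4.38 CPM, a ratio of 0.523 (0.386 to 0.702), and its log2 fold of -0.93 reached -1.003, past 2-fold, with the length and GC trend removed. Both the Axin2 and the Nkd1 interval included 1, and no value above 1.07 lay within either.

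Genes around the pathway that the rule left out were compared in 6 lists. Of 125 listed genes 116 had a row and 107 averaged 1 CPM or more. Of these, 10 were at least 2-fold higher and 8 at least 2-fold lower in the knockdown library, with a median log2 fold of -0.02, and the shares of all genes given above (7.64% and 7.76%) apply to these counts too. Co-receptors and receptor partners past the minimum numbered 12, of which 1 was past 2-fold: Lrp4, a receptor of the Lrp family, had 308 and 1010 counts, a ratio of 3.50. The other members of that list furthest from 0 were the glypican Gpc4 at a log2 fold of -0.94, the Dickkopf receptor Kremen1 at 0.76 and the Wnt5a receptor Ror2 at 0.68. Of 10 secreted and membrane inhibitors 2 were higher, Apcdd1 with 634 and 1404 counts (log2 fold 1.24) and the decoy Frzb with 20 and 44 (1.21). In the same list 1 was lower, Sostdc1 with 51 and 14 (-1.73), while Dact2 was at -0.89. Sostdc1 (3.03 and 0.888 CPM) passed the minimum only through the control library, so the filter itself favoured a difference in it.

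All 24 genes of the destruction complex and its regulators lay within 2-fold, the furthest being Usp34 at a log2 fold of -0.69, Frat1 at 0.66, Amer1 at -0.53 and Csnk1g2 at -0.53. Of 18 nuclear co-factors only Tle1 lay past 2-fold. Tle1, a Groucho-type co-repressor that binds Tcf factors, had 1114 control and 2802 knockdown counts, or 66.1 and 178 CPM, a ratio of 2.69, and Ctbp2, Ctnnbip1 and Aes had log2 folds of -0.38, 0.32 and -0.31. The planar cell polarity and calcium branch was spread widest, with 5 of 28 genes at least 2-fold higher and 5 at least 2-fold lower. Celsr1, an atypical cadherin of planar polarity, had 296 and 2639 counts, or 17.6 and 167 CPM, a ratio of 9.53. Nfatc4 and Ankrd6 had log2 folds of 1.82 and 1.66, and the phospholipase Plcb1 had -1.60. Of 15 reported beta-catenin targets past the minimum 12 were below and 3 above their control level, 2 of them at least 2-fold lower and 1 at least 2-fold higher, with a median log2 fold of -0.28, beside 49.7% of all genes above 0. The furthest were Fgf9 with 44 and 11 counts (log2 fold -1.86), Met with 155 and 62 (-1.22), Tnfrsf19 with 714 and 1454 (1.12) and Mycn with 629 and 351 (-0.75). Fgf9 (2.61 and 0.698 CPM) passed the minimum only through the control library, so the filter itself favoured a difference in it.

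**Figure D4:**
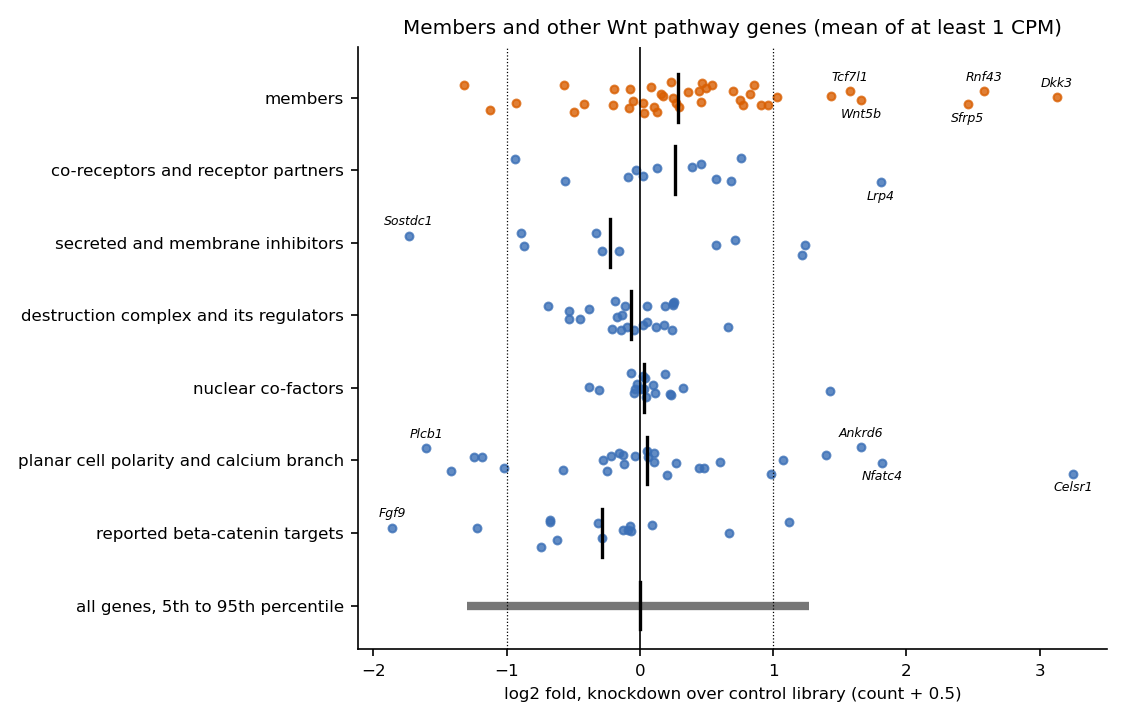
Log2 fold, knockdown over control library, of the members and of 6 lists of other Wnt pathway genes past the minimum; each dot is a gene, black bars are medians, dotted lines mark 2-fold, and the grey bar spans the 5th to the 95th percentile of all 14158 genes (-1.30 to 1.27). Genes with an absolute log2 fold of at least 1.5 are named: Dkk3 at 3.13 and Celsr1 at 3.25 stand furthest right, and the destruction complex genes all lie between the dotted lines.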

How the data were processed

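Brain neural stem cell RNA was sequenced in 1 control and 1 knockdown library. Reads were handled with TopHat2 2.0.12, HTSeq 0.6.0 and Bowtie2 2.2.3 and the build mm9, per the submitters' processing notes, which give no order or settings, and strandedness is not given in the sources used here. Per the file headers, the authors deposited raw counts for each gene, and CPM, which the values show to be the count times 1 factor per library with a count of 0 replaced by 0.5. Gene positions are those of the table. All 58 genes were found in GENCODE M21 (GRCm38), 53 of them with the same start and end, so they are GRCm38 positions and not mm9. A further 7 genes whose names fit the rule, Dkk1, Rspo4, Wnt10b, Wnt3a, Wnt8a, Wnt8b and Wnt9b, had no row in the count table and were not analysed here.

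Counts were scaled with edgeR 4.0.16 (TMM factors 1.018 for the control and 0.982 for the knockdown library). The log2 fold adds 0.5 to each count, and CPM and ratios do not. With 1 library per group no test was made, and the 14158 genes averaging 1 CPM or more were counted at 2-fold on the log2 fold. Intervals and shares are exact (Clopper-Pearson, 95%) and, like the floor of 3 counts, cover counting error only, since 1 library per group gives no replicate spread. They may be too narrow even for counting error, since PCR copies are not independent molecules. Levels are compared between genes only per kilobase of the merged GENCODE M21 exons. The calculation was tested on simulated counts. Alternatives were other scalings (DESeq2 1.42.0 size factors, total counts and the CPM of the authors), other minimums (none, or 10 CPM), 5 as prior count and 1.5-fold as threshold. Removal of the trend with length and GC content, calling 2-fold on the ratio with nothing added to the counts, and leaving out genes that share exonic bases with another gene, were chosen after seeing the data. The genes and lists were chosen with earlier results of these data known. Named genes are Ccdc25, every gene of the rule, with full values for those past 2-fold and the up to 4 most counted of each role, and the up to 4 members of each other list with the largest absolute log2 fold.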

Additional observations from a re-analysis of the deposited data

How the results depend on the processing

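With 1 library per group no replicate could be left out. No paired analysis was possible because each group has 1 library. The counts of pathway genes past 2-fold (7 higher, 2 lower) were the same with DESeq2 size factors, the authors' CPM and the ratio with nothing added to the counts (1089 and 1118 of all genes, beside 1082 and 1098), 6 and 2 with total-count scaling (981 and 1200 of all genes), 6 and 3 with the length and GC trend removed (1087 and 1073 of all genes) and 6 and 2 among the 33 genes past the minimum that share no exonic base with another gene. For the 33 genes no matching subset of all genes was counted. Wnt3 came inside 2-fold with total-count scaling (log2 fold 0.98) and with the trend removed (0.96). With a prior count of 5, 6 genes were higher and 1 lower, since Wnt3 (0.88) and Rspo2 (-0.86) came inside 2-fold. Without an expression minimum 9 of 58 were higher and 7 lower, beside 2286 and 2475 of all 19595 genes. Of the 116 other pathway genes with a row, 13 were lower. With a minimum of 10 CPM, which fewer genes pass, 4 of 29 were higher and 0 lower. Of all genes 500 were higher and 496 lower, and 5 other pathway genes were lower. How many of all genes and of the other pathway genes pass 10 CPM is not given here, so their counts are not shares. At 1.5-fold 14 were higher and 3 lower, with 17 and 16 of the other pathway genes and 2259 and 2218 of all genes. The median log2 fold of the pathway genes ran from 0.23 to 0.36 over these settings. No gene whose counting interval excluded 1 changed direction. Of those whose interval included 1, Dvl1 and Lgr4 changed sign with total-count scaling and with the authors' CPM (-0.03 and -0.02), and Dvl1 (-0.03), Sfrp2 (-0.006) and Lrp6 (0.16) did with the trend removed. The depth limits what can be said of the 16 genes below 1 CPM, which had 0 to 20 counts.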
